A study of Mus musculus with 2 samples.

Results

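The genes described here were the splicing factor families of the mouse testis: the SR proteins (Srsf), the heterogeneous nuclear ribonucleoproteins (Hnrnp), the small nuclear ribonucleoproteins (Snrp) and the SF3A and SF3B subunits of the U2 particle (Sf3a and Sf3b). They were chosen by symbol alone, as every gene whose symbol starts with one of these names, without pseudogene symbols that carry -ps and without antisense symbols that end in os. This gave 53 of the 36547 genes in the tables, of which 11 were Srsf, 20 Hnrnp, 13 Snrp, 3 Sf3a and 6 Sf3b genes. The rule itself used no measured value, although earlier results of these data were known when it was set.

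The study compared testis cells of wild-type (WT) C57BL/6 mice and of mice that lacked Alkbh5 (Alkbh5-/-, here KO), all at 12 weeks of age. ALKBH5 is an enzyme that removes methyl groups from N6-methyladenosine in RNA, and the KO was global, so that germ cells and somatic cells both lacked the gene. Each genotype gave 1 single-cell library. The study's text names 1 mouse per genotype in one place and testes of 3 mice in another, so that pooling of animals cannot be told from the sources used here.

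Splicing removes introns from newly made RNA. The snRNPs recognise the ends of the intron, and each is built on a ring of Sm proteins assembled around a small nuclear RNA; SF3A and SF3B sit in the U2 particle and hold it at the branch point. SR proteins mostly bind exons and favour their use, while hnRNP proteins coat the new transcript and often oppose SR proteins or act on later steps of RNA life. The testis is known for very frequent alternative splicing, and transcription ceases in spermatids as the chromatin is packed with protamines, so that RNA present in the last stages was made earlier.

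Values are counts of unique molecular identifiers (UMIs, one per captured RNA molecule), summed over the cells of a class in a library and given as CPM, in which the UMIs of each class are scaled to the same total, so that 11889 CPM is 1.19% of the UMIs of a class. The WT library held 5756 cells with 80283221 UMIs and the KO library 7012 cells with 82056760 UMIs. As a check of the labels, Alkbh5 had 607 UMIs in the WT library and 5 in the KO library. Cells were clustered anew, and each class was named from marker genes only, so that "spermatogonia" or "Sertoli" below means clusters that resemble these cells by their markers. The germ cell classes were spermatogonia (188 WT and 1064 KO cells), early spermatocytes (34 and 120), late spermatocytes (706 and 663), early-stage (810 and 762), mid-stage (1114 and 1035) and late-stage round spermatids (333 and 317) and sperm (2402 and 1304), the last being a class of elongating spermatids and sperm led by protamine and transition protein genes. Leydig cells numbered 92 and 1165, Sertoli cells 50 and 475, and macrophages 26 and 83. In the late-stage round spermatid class 5 of 12 listed markers passed the naming rule (detected in 10% of cells, at 2-fold or more over the other cells), the sperm list had more markers past it and a higher mean fold, and sperm markers stood at 70.9% (WT) and 74.5% (KO) of their sperm level, so the name of this class is uncertain and it lies close to sperm. In the spermatogonia class 15 of 20 spermatogonia markers passed the naming rule, as did 16 of 20 early spermatocyte markers. The mean log2 folds of these lists were 3.79 and 2.13. The border between spermatogonia and early spermatocytes is thus uncertain. There were 45 cell barcodes that occurred in both libraries, 4 of them in the same class. Scored doublets (4.24% of WT and 4.92% of KO cells) were kept. With 1 library per genotype there is no replicate check: no test was made, and every interval below is a 95% interval that covers counting error only.

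Snrpd2 encodes SmD2, a subunit of the Sm ring. Its promoter is shown with that of Snrpg, another Sm gene, because their RNA levels parted in the last germ cell classes. The promoters are the 250 bases before and 50 bases after the start, from RefSeq on GRCm38.p6, at chr7:19149588-19149887 (plus strand) for Snrpd2 and at chr6:86371290-86371589 (plus strand) for Snrpg. Capitals mark TGACG on either strand, the core of the site known for CREB and CREM, the latter being a factor of round spermatids.
Snrpd2: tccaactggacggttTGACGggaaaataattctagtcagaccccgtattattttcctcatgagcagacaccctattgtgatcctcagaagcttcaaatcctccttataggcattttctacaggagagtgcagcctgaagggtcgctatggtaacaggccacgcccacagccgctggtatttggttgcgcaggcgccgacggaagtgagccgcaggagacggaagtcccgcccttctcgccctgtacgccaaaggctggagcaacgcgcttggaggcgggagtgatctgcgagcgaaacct
Snrpg: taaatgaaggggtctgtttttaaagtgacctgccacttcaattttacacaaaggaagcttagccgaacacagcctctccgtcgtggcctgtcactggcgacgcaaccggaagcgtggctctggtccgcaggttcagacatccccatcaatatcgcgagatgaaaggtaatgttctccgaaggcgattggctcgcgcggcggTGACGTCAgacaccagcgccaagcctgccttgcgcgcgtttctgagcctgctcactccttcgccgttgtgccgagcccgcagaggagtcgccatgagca
The Snrpd2 window held 1 match and the Snrpg window 2, which overlap in the full palindrome TGACGTCA. Of the 46 members with a listed promoter, 23 held TGACG, or 50%, against 23% of 27025 genes, and 2 held TGACGTCA, or 4.35% against 2.03%. The 2 were Snrpg and Snrpa, whose WT sperm levels were 0.455% and 5.1% of their highest germ cell level. Of the 8 members with a promoter whose WT sperm level was at least 10% of their highest germ cell level, 5 held TGACG, as did 18 of the other 38. A gene was counted when any of its listed promoters held a match. The members and the 27025 genes were not matched for base content or for the number of promoters. A match is a description of letters and not of binding. The members picked at 10% were chosen for this split after their values were seen.

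Across the germ line the members together were highest in early spermatocytes, followed by spermatogonia, and lower at each later stage in both libraries. In the WT library the 53 members together made up 11889 CPM in spermatogonia, 14577 in early spermatocytes, 6446 in late spermatocytes, 3868, 2458 and 1693 in early-, mid- and late-stage round spermatids and 1119 in sperm. In the KO library the same classes held 13417, 13872, 7550, 4177, 2547, 1818 and 1387 CPM. The order of the classes was thus the same in both libraries, apart from a smaller gap between spermatogonia and early spermatocytes in the KO library.

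The steps between the classes differed by family. The Srsf genes went from 2404 CPM in WT spermatogonia to 103 in sperm and the Hnrnp genes from 4016 to 125. The Sf3a genes, which encode the trimer that joins SF3B to the U2 particle, went from 242 to 2.95 CPM, and the Sf3b genes from 1048 to 17.8. The Snrp genes had 4179 CPM in spermatogonia and 870 in sperm. On the log2 scale the WT spermatogonia level stood above the sperm level by 4.55 for Srsf (interval 4.48 to 4.62), 5.01 for Hnrnp (4.95 to 5.07), 6.36 for Sf3a (6.00 to 6.73) and 5.88 for Sf3b (5.73 to 6.03), but by 2.26 for Snrp (2.22 to 2.30). Without Snrpd2 the Snrp difference was 5.75, within the range of the other families. The KO library gave 4.66, 4.84, 6.62, 5.79 and 2.06 in the same order, and 5.67 for Snrp without Snrpd2.

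**Figure D1:**
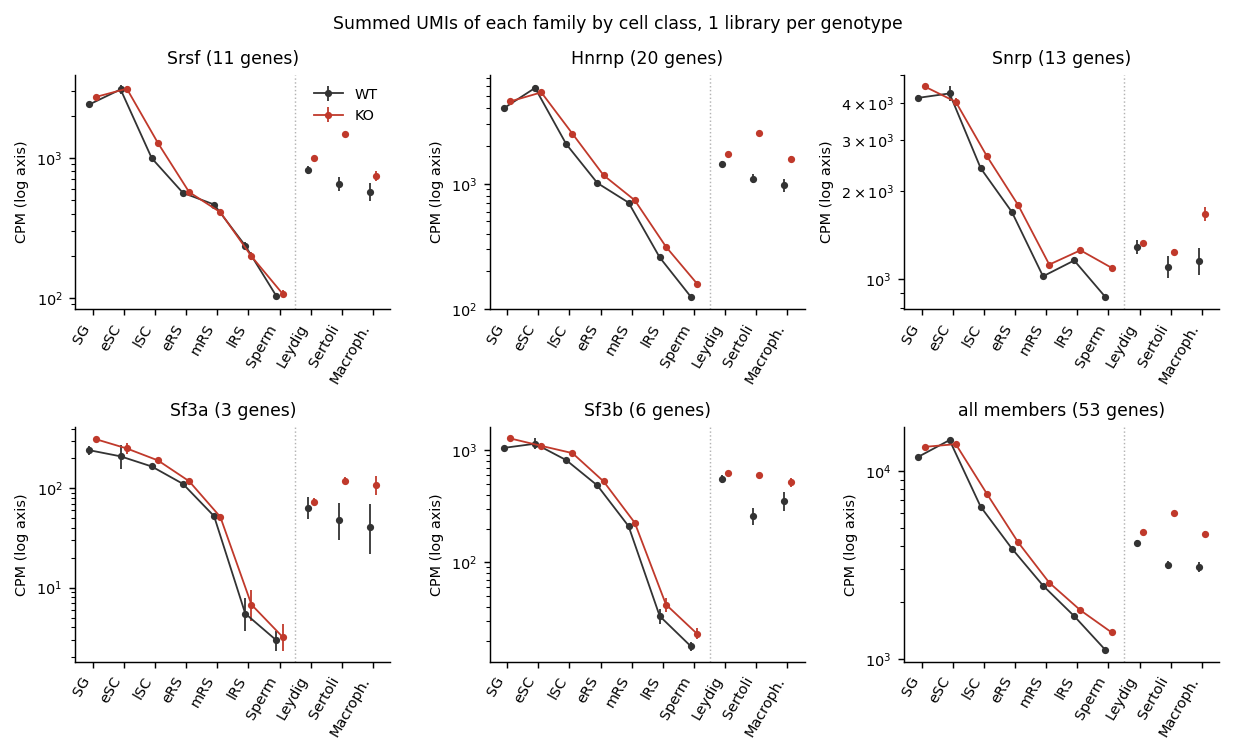
Summed CPM (log axis) of each family and of all members in 7 germ cell classes (joined by lines) and 3 somatic classes (right of the dotted line), WT in black and KO in red; bars are exact Poisson 95% intervals of 1 library, SG is spermatogonia, SC spermatocyte and RS round spermatid, with e, l and m for early, late and mid. Srsf, Hnrnp, Sf3a and Sf3b are lower at each step from late spermatocytes on, while the Snrp curve flattens at 870 CPM in WT sperm.

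Counted by gene, 16 members had their highest WT germ cell level in spermatogonia, 27 in early spermatocytes, 7 in late spermatocytes, 1 in early-stage round spermatids and 2 in late-stage round spermatids. Over the 16547 genes with enough UMIs for this count the first 2 classes held 17.9% each, late spermatocytes 21.3% and the spermatid and sperm classes 12.4%, 14.5%, 10.1% and 5.87%. In the KO library 52 members had enough UMIs, and their counts were 21, 22, 6 and 1 for the first 4 classes, none for mid-stage round spermatids, and 1 each for late-stage round spermatids and sperm. Over the 17660 genes of that library the classes held 23.6%, 16.4%, 18.4%, 12.5%, 14.3%, 8.65% and 6.06%. The early spermatocyte class had 262125 WT UMIs, the fewest of the germ cell classes, which limits its rank for members of low level. Its uncertain border with spermatogonia limits the ranks between these classes as well. In sperm 8 members in the WT library and 9 in the KO library still stood at 10% or more of their highest germ cell level. The share of all genes at this level was not computed, so these counts are not read as few or many.

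**Figure D2:**
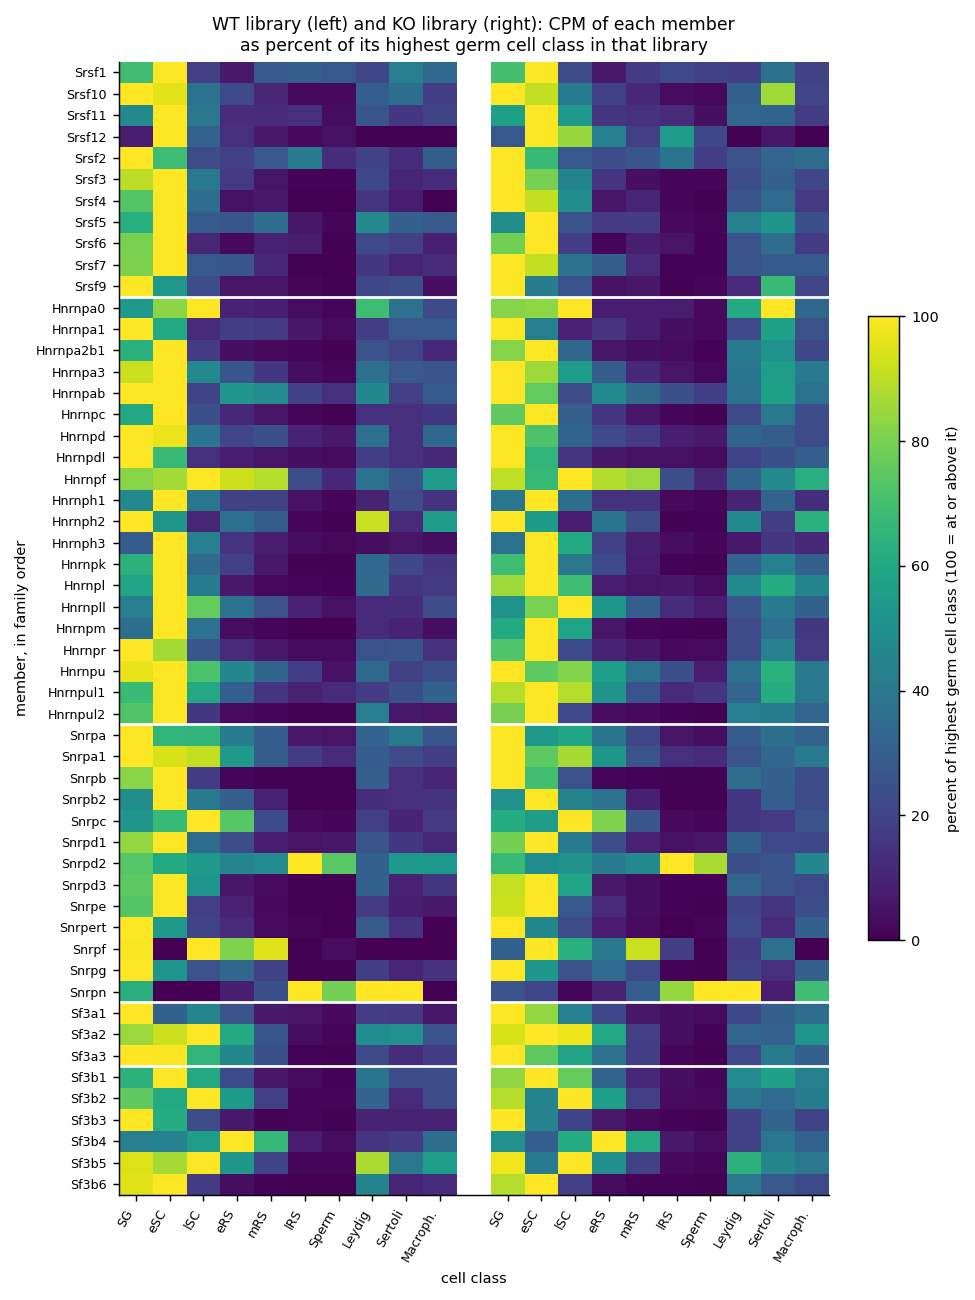
CPM of each of the 53 members in 10 cell classes as a percent of its highest germ cell class, WT library left and KO library right, with white lines between families; yellow is 100% or, for a somatic class, above it. Most rows are bright in spermatogonia and spermatocytes and dark in sperm, and Snrpd2 is the row of the Snrp block that stays bright throughout.

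Within the Sm ring the genes parted. Snrpb (SmB), Snrpd1 (SmD1), Snrpd2 (SmD2), Snrpd3 (SmD3), Snrpe (SmE), Snrpf (SmF) and Snrpg (SmG) supply 1 subunit each, and the proteins are used in equal number. Snrpd2 had 799 WT CPM in spermatogonia, 664 in early spermatocytes, 583 in late spermatocytes, 495, 521 and 1084 in early-, mid- and late-stage round spermatids and 808 in sperm. The KO library gave 790, 568, 598, 475, 557, 1167 and 1020. Snrpd2 was therefore highest in late-stage round spermatids in both libraries, 0.44 log2 units above the higher of the WT spermatogonia and early spermatocyte levels.

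The other Sm genes were low by then. Snrpb went from 365 WT CPM in spermatogonia to 6.36 in early-stage round spermatids and 1.34 in sperm, and Snrpd3 from 363 to 31.0 and 2.20. Snrpe went from 633 to 78.9 and 2.68. Snrpg kept 324 CPM in early-stage and 194 in mid-stage round spermatids but had 5.87 in late-stage round spermatids and 4.49 in sperm. Snrpd1, the direct partner of SmD2 in the ring, was intermediate, with 259 in spermatogonia, 73.4 in early-stage round spermatids and 19.8 in sperm. Sperm levels were thus 0.367% of the spermatogonia level for Snrpb, 0.607% for Snrpd3, 0.423% for Snrpe, 0.455% for Snrpg and 7.63% for Snrpd1, but 101% for Snrpd2. In the KO library these shares were 0.394%, 0.964%, 0.585%, 0.698%, 7.51% and 129%.

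**Figure D3:**
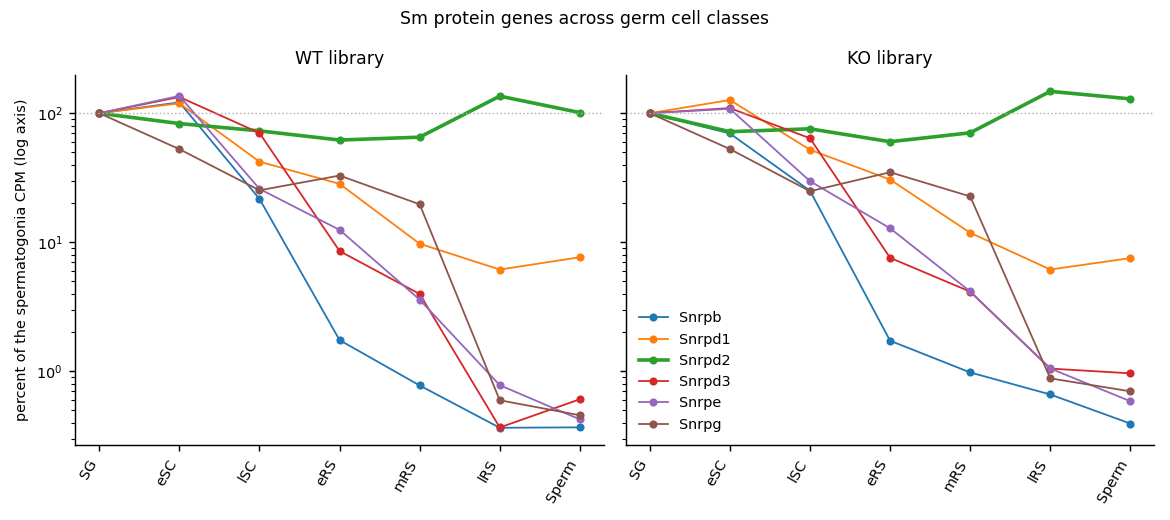
Level of 6 Sm genes in the germ cell classes as a percent of the spermatogonia CPM of the same library (log axis), WT left and KO right; the dotted line is 100%. Snrpd2 stays near the line and ends at 101% (WT) and 129% (KO) in sperm, while Snrpb, Snrpd3, Snrpe and Snrpg end below 1%. The mix of clusters within the sperm class differed between the libraries.

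Snrpd2 made up 6.72% of all member UMIs in WT spermatogonia (interval 6.38 to 7.08) and 72.2% in WT sperm (71.7 to 72.7), with 5.89% and 73.6% in the KO library. Without it the members summed to 311 CPM in WT sperm and 367 in KO sperm. Within the sperm class Snrpd2 differed between the clusters: it was 1307 WT and 1401 KO CPM in the cluster led by 1700036O09Rik, 990 and 1081 in the cluster led by Tnp2, 435 and 377 in the cluster led by 1700008P02Rik, and 315 and 252 in the cluster led by Itpr3os and Spem2. These clusters held 534, 645, 659 and 564 WT cells and 478, 414, 257 and 155 KO cells in the same order. The KO value was thus the higher in the first 2 clusters and the lower in the last 2. The part of this mix in the KO and WT levels of the whole sperm class was not tested. No annotated gene overlaps Snrpd2 and none had a near-identical transcript end, so its reads are not known to be shared.

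RNA set free from broken cells can add UMIs to any class, and the spermatogonia marker list gives a yardstick for it in sperm. That list stood in sperm at 0.722% (WT) and 0.765% (KO) of its spermatogonia level. In both libraries 7 of the 53 members were at or below it, among them Snrpb, Snrpe and Snrpg, and no expression is read from their sperm levels. The part of free RNA in any sperm level was not tested. The remaining 46 were above the list in at least 1 library. This is not read as expression in sperm, because the list does not cover RNA from the later classes.

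The genes of the U1- and U2-specific proteins also differed among themselves. Snrpc (U1-C) was highest in late spermatocytes, with 602 CPM in WT and 595 in KO, and still had 446 and 479 in early-stage round spermatids before reaching 7.40 and 7.43 in sperm. Snrpa1 (U2-A') declined gently, from 118 WT CPM in spermatogonia to 34.8 in mid-stage round spermatids and 14.2 in sperm. Snrpb2 (U2-B''), its partner in the U2 particle, had 229 in spermatogonia and 43.0 in mid-stage round spermatids but 0.758 in late-stage round spermatids. Snrpa (U1-A) had 92.6 in spermatogonia and 4.72 in sperm, and 2 other genes have a transcript end nearly identical to that of Snrpa. After mid-stage round spermatids Snrpa1 and Snrpb2, whose proteins bind as a pair, thus had unlike profiles.

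A few Snrp genes were low throughout the germ line. Snrpn, the imprinted SmB relative of neurons, was highest in WT late-stage round spermatids at 5.68 CPM on 30 UMIs, against 3.56 in spermatogonia on 6 UMIs, and had 4.49 WT and 5.50 KO CPM in sperm on 114 and 74 UMIs; the annotation places overlapping genes on its locus. Snrpf had 1.19 WT CPM in spermatogonia and at most 1.20 in any germ cell class of that library, and it reached 50 UMIs in no class. Over all cells it had 54 WT and 40 KO UMIs. The annotation places 2 other genes over Snrpf on the opposite strand, and the strand setting of counting is not given. Its low count is therefore not read as a lack of expression. Snrpert, annotated as a processed pseudogene of Snrpe, was 14.2 WT and 12.4 KO CPM in spermatogonia. Its sequence and that of Snrpe are shown because reads that end in the shared stretch can be assigned to either gene.
Snrpe: acctcgtattagatGatgcagaagagattc
Snrpert: acctcgtattagatAatgcagaagagattc
The lines are bases 164 to 193 counted from the A of the Snrpe start codon, in GENCODE vM21 transcripts, with the differing base in capitals (G178A). This was the only difference in the 225 bases that aligned, 99.6% identity. Snrpe lies at chr1:133603871-133610291 (minus strand) and Snrpert at chr2:131322088-131322366 (minus strand) on GRCm38.

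Among the SR proteins, Srsf3, Srsf7 and Srsf10 were lower at nearly each later stage. Srsf7, which couples splicing to RNA export, had 459 WT CPM in spermatogonia, 572 in early spermatocytes, 158 in late spermatocytes, 66.3 in mid-stage round spermatids and 1.85 in sperm. Srsf3, the smallest SR protein, had 437, 485, 197, 26.8 and 3.82 in the same classes. Srsf10, which represses splicing when it is dephosphorylated, had 445, 427, 167, 47.0 and 9.17.

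Others had a trough followed by higher levels. Srsf1, the founding member of the family, was 164 WT CPM in early spermatocytes, 30.8 in late spermatocytes and 11.2 in early-stage round spermatids, and then 45.5, 49.8 and 45.1 in mid-stage and late-stage round spermatids and sperm. The KO library had the same trough at 12.7 and later levels of 32.7, 40.7 and 36.3. Srsf6 was 6.44 WT CPM in early-stage and 23.3 in mid-stage round spermatids, and Srsf2 was 17.9 there, 25.6 in mid-stage and 39.0 in late-stage round spermatids. Srsf5, a regulator of alternative exons, was 110 in early-stage and 148 in mid-stage round spermatids and then 26.3 and 7.24. Srsf11, an SR-related protein, was 622 in early spermatocytes and still 83.2 in late-stage round spermatids. Srsf12 had at most 7.63 WT CPM in any class, from 2 UMIs, and reached 50 UMIs in late spermatocytes only.

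**Figure D4:**
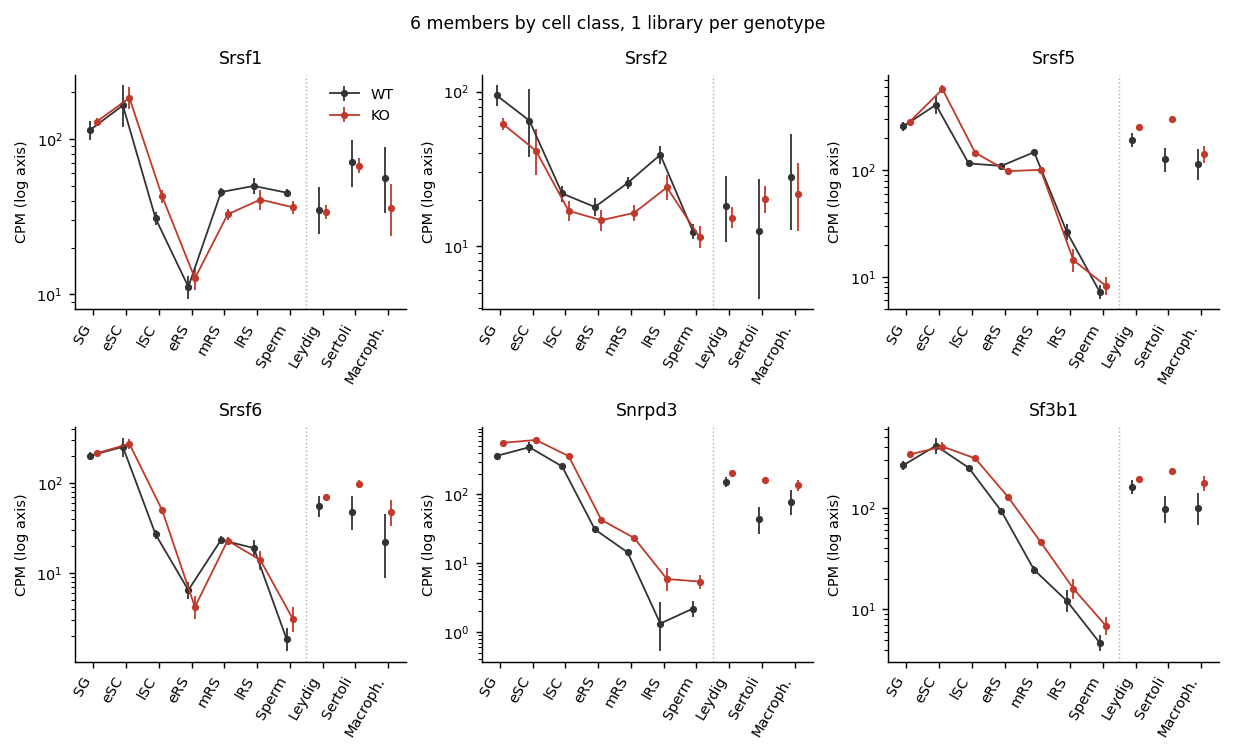
CPM (log axis) of Srsf1, Srsf2, Srsf5, Srsf6, Snrpd3 and Sf3b1 by cell class, WT in black and KO in red, with exact Poisson 95% intervals of 1 library; germ cell classes are joined by lines and somatic classes lie right of the dotted line. Srsf1 has its trough in early-stage round spermatids (11.2 WT and 12.7 KO CPM), Srsf2 lies lower in KO in every germ cell class, and Snrpd3 lies higher.

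The hnRNP genes were mostly genes of spermatogonia and early spermatocytes. Hnrnpa2b1, whose protein has been described as a reader of N6-methyladenosine in RNA, had 997 WT CPM in spermatogonia, 1564 in early spermatocytes, 276 in late spermatocytes, 63.2, 37.0 and 29.0 in the round spermatid classes and 7.32 in sperm. Hnrnpm, a regulator of exon skipping, had 534 in early spermatocytes, 199 in late spermatocytes and 18.4 in early-stage round spermatids. Hnrnpf differed, with 149, 156, 181, 167, 161 and 42.4 from spermatogonia to late-stage round spermatids, and 20.6 in sperm. Its close relative Hnrnph1 was 366 in early spermatocytes and 72.4 in mid-stage round spermatids, and the X-linked Hnrnph2 was 50.5 in spermatogonia, 5.49 in late spermatocytes and 18.4 in early-stage round spermatids. Hnrnpu, which tethers RNA to chromatin, had 298, 309, 222, 143, 100, 55.7 and 14.7 over the 7 classes.

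In the KO library Hnrnpf had 186, 138, 206, 182, 175, 48.7 and 21.3 CPM and Hnrnpu 316, 238, 256, 178, 118, 76.7 and 24.7. The early spermatocyte value of both thus lay below its neighbours in KO, on 120 and 207 UMIs, and between or above them in WT. Hnrnph2 had its low value of 5.38 in KO late spermatocytes as well. In WT sperm Hnrnpa1 stood at 2.75%, Hnrnpr at 2.91% and Hnrnpd at 6.63% of the spermatogonia level.

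Of the SF3A genes, Sf3a3 had 161 WT CPM in spermatogonia, 106 in late spermatocytes, 39.0 in mid-stage round spermatids and 1.52 in late-stage round spermatids. Sf3a2 had 31.5, 37.1, 9.88 and 1.33 and Sf3a1 49.3, 22.4, 3.58 and 2.65 in the same classes. No Sf3a gene reached 50 UMIs in late-stage round spermatids, and only Sf3a1 did so in sperm.

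The SF3B genes split by stage. Sf3b4 (SF3b49) was highest in early-stage round spermatids in both libraries, at 155 WT and 138 KO CPM, against 66.5 and 69.9 in spermatogonia, and was 103 and 84.8 in mid-stage round spermatids. Sf3b2 (SF3b145), to which the Sf3b4 protein binds, had its highest level in late spermatocytes at 255 WT and 267 KO CPM, with 139 and 151 in early-stage round spermatids. Sf3b1, the scaffold subunit and target of splicing inhibitors, had 264, 412, 250, 93.0, 24.5, 12.1 and 4.68 WT CPM over the 7 classes. Sf3b6 (p14), which lies at the branch point, had 321 in spermatogonia, 336 in early spermatocytes, 58.4 in late spermatocytes and 12.5 in early-stage round spermatids. Sf3b3 had 61.7, 38.1, 14.6 and 4.43 in the same classes and Sf3b5 142, 130, 150 and 79.3.

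In the somatic classes the members summed to 4151 WT and 4749 KO CPM in Leydig cells, 3157 and 5991 in Sertoli cells and 3081 and 4628 in macrophages. These sums lay between those of late spermatocytes and mid-stage round spermatids of the same library. In Leydig cells Hnrnpa2b1 had 388 WT and 533 KO CPM and Snrpd2 338 and 286.

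The comparison of KO with WT within a class asks whether the families differed with the loss of ALKBH5 once cells of like stage were set side by side. In summed UMIs fewer expressing cells and less RNA per cell cannot be told apart. The summed members were higher in KO in 6 of the 7 germ cell classes, but in mid-stage round spermatids the value became 0.00 with clustering at resolution 0.8, and in spermatogonia 3 other clusterings gave 0.08 to 0.11. The log2 ratio of KO to WT was 0.17 in spermatogonia (interval 0.15 to 0.20), 0.23 in late spermatocytes (0.21 to 0.24), 0.11 in early-stage round spermatids (0.09 to 0.13), 0.05 in mid-stage (0.03 to 0.07) and 0.10 in late-stage round spermatids (0.06 to 0.15), and 0.31 in sperm (0.28 to 0.34). It was -0.07 in early spermatocytes (-0.12 to -0.02), where 3 other clusterings gave 0.06 to 0.09. The median log2 ratio of all genes was 0.03, 0.04, 0.02, 0.03 and 0.04 in the first 5 of these classes, 0.18 in sperm and -0.01 in early spermatocytes. Among the 53 members the median was 0.35 in sperm and between -0.12 and 0.23 elsewhere in the germ line, over the members with at least 50 UMIs. The share of UMIs from mitochondrially encoded genes was higher in KO in all 10 classes, for example 0.289% against 0.591% in mid-stage round spermatids and 4.14% against 5.07% in spermatogonia, and its part in these ratios was not tested. In sperm the value became 0.09 when the clusters of the class were given the same weight in both libraries, and 0.13 relative to the median of all genes. Markers of later germ cells were also seen in spermatogonia. Sperm markers stood there at 10.7% (WT) and 6.56% (KO) of their level in their own class. Mid-stage round spermatid markers stood at 9.83% and 4.14%, while Leydig markers were higher in KO, at 0.156% and 0.407%. The part of RNA from other classes in these ratios was not tested.

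A member was counted as apart when it had at least 50 UMIs in both libraries together and differed at least 1.5-fold, a rule of size and not a test. Over all genes this picked 10.8% as higher and 14.5% as lower in KO spermatogonia, where 2 and 1 of 50 members met it. It picked 10.1% and 9.34% in early spermatocytes (1 and 5 of 42 members), 10.2% and 6.64% in late spermatocytes (2 and 0 of 51), and 8.54% and 7.44% in early-stage round spermatids (1 and 1 of 47). In mid-stage round spermatids it picked 15.1% and 6.68% (3 and 1 of 48 members), in late-stage 13.8% and 7.43% (4 and 2 of 31) and in sperm 23.3% and 6.73% (12 and 1 of 41). Over the 7 classes 25 of 310 member and class pairs were higher and 11 lower in KO, or 8.06% and 3.55%, against 13.2% and 8.29% of all gene and class pairs. With clustering at resolution 0.8, 19 of the 25 and 4 of the 11 were picked again. Early spermatocytes, which gave 5 of the 11, then held 88 WT and 365 KO cells in place of 34 and 120. Of the 52 members compared in at least 1 germ cell class, 27 met the rule in none, or 51.9%, against 47% of 17317 genes.

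**Figure D5:**
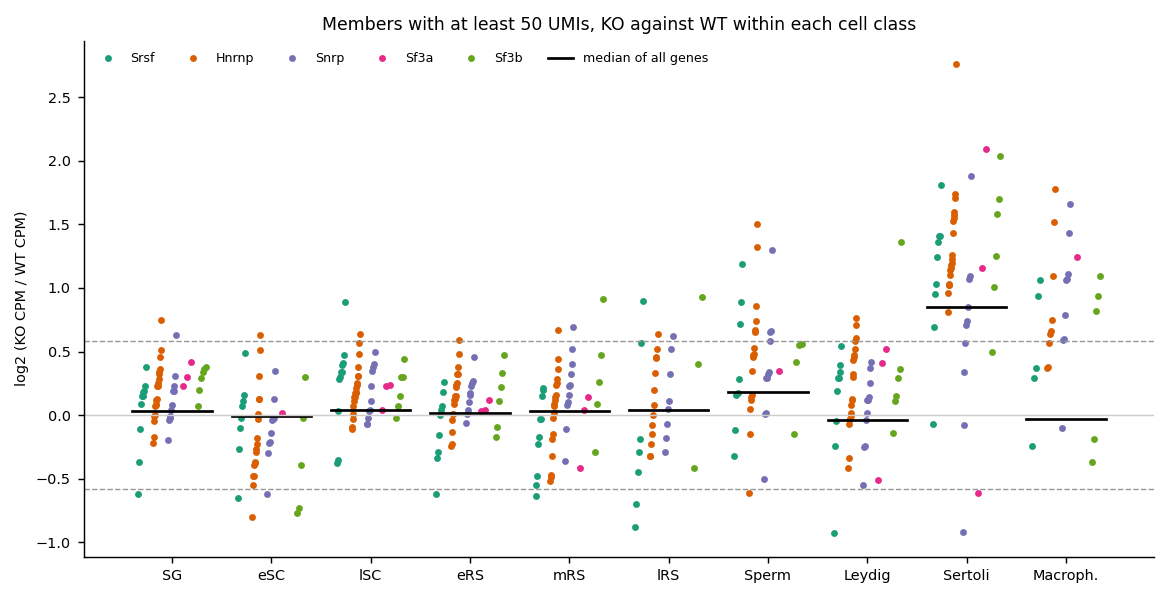
log2 ratio of KO to WT CPM for each member with at least 50 UMIs, by cell class and coloured by family; the black bar is the median of all genes in that class and the dashed lines are the 1.5-fold limits. Most germ cell points lie between the dashed lines, and in Sertoli cells most members and the median of all genes (0.85) lie above 0.

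By family, the germ cell ratios were small and not all in the same direction. Srsf was 0.36 higher in KO late spermatocytes (0.32 to 0.39) but 0.18 lower in mid-stage round spermatids, at -0.18 (-0.23 to -0.14), and at -0.25 in late-stage round spermatids (-0.38 to -0.13). Hnrnp was 0.28 higher in late spermatocytes (0.25 to 0.30) and 0.21 in early-stage round spermatids (0.17 to 0.24). Snrp was 0.14 and 0.08 higher in these classes, and Sf3b 0.28 higher in spermatogonia (0.21 to 0.35). Sf3a was 0.37 higher in spermatogonia (0.22 to 0.52).

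Srsf2, a regulator of exon inclusion that also acts in transcription pausing, had a lower value in KO in each germ cell class. It had 94.4 WT and 61.5 KO CPM in spermatogonia, 64.9 and 41.4 in early spermatocytes, 21.9 and 16.9 in late spermatocytes, 17.9 and 14.7 in early-stage, 25.6 and 16.4 in mid-stage and 39.0 and 24.0 in late-stage round spermatids, and 12.4 and 11.4 in sperm. The log2 ratios were -0.62 (-0.88 to -0.35), -0.65 (-1.52 to 0.28), -0.38 (-0.65 to -0.11), -0.29 (-0.59 to 0.02), -0.64 (-0.86 to -0.43), -0.70 (-1.04 to -0.36) and -0.12 (-0.40 to 0.17), so that 3 of the 7 intervals held 0. In Sertoli cells it was higher in KO, at 20.1 against 12.5 CPM on 6 WT UMIs (0.69, interval -0.49 to 2.17). It was the only member lower in all 7 classes among the 30 with enough UMIs in each of them, and 6.26% of the 2061 genes with enough UMIs in all 7 classes were so. The annotation places 2 other genes over Srsf2 on the opposite strand, and without a strand setting in the sources used here their reads cannot be told apart. Srsf4 was also lower in the 3 classes in which it could be compared, at -0.37, -0.35 and -0.17.

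Srsf5, Srsf6 and Srsf1 differed in direction along the germ line. Srsf6 had 26.8 WT and 49.8 KO CPM in late spermatocytes, a log2 ratio of 0.89 (0.70 to 1.09), but 6.44 and 4.18 in early-stage round spermatids, a ratio of -0.62 (-1.19 to -0.08). Within late spermatocytes the ratio was 0.77 in the cluster led by Gm14244 and Piwil1 and 0.54 in the cluster led by Nutm2. Srsf5 had a ratio of 0.34 in late spermatocytes, -0.55 in mid-stage round spermatids (148 against 101 CPM) and -0.88 in late-stage round spermatids (26.3 against 14.3, interval -1.32 to -0.45), where a clustering without integration gave 0.67. Srsf1 had a ratio of 0.47 in late spermatocytes and -0.48 in mid-stage round spermatids (45.5 against 32.7 CPM). Srsf10 was 8.90 WT and 16.7 KO CPM in late-stage round spermatids, a ratio of 0.90 (0.36 to 1.46).

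Snrpd3 stood higher in KO in each germ cell class in which it could be compared. It had 363 WT and 563 KO CPM in spermatogonia (0.63, interval 0.51 to 0.75), 485 and 617 in early spermatocytes (0.35), 255 and 360 in late spermatocytes (0.50) and 31.0 and 42.6 in early-stage round spermatids (0.46). It had 14.4 and 23.3 in mid-stage round spermatids (0.69, interval 0.47 to 0.92) and 2.20 and 5.42 in sperm (1.30, interval 0.78 to 1.83). In late-stage round spermatids it did not reach 50 UMIs. A higher KO value in every germ cell class compared was found for 9 members, Snrpd3 among them, some compared in few classes. The share of all genes with this trait was not computed. The WT sperm level of Snrpd3, at 0.607% of its spermatogonia level, lay below the 0.722% of the spermatogonia marker list. The KO value was also the higher in Leydig cells, at 202 against 151 CPM. Gucd1 overlaps its locus on the opposite strand. Over the 7 classes the ratios ran from -0.14 to 0.66 for Snrpe, from -0.07 to 0.58 for Snrpg, from 0.02 to 0.35 for Snrpd1 and from -0.22 to 0.34 for Snrpd2. Snrpb ran from -0.62 in early spermatocytes (443 WT and 289 KO CPM) to 0.52 in mid-stage round spermatids.

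Sf3b1 was higher in KO in 6 of 7 classes. In early-stage round spermatids it stood at 93.0 WT and 129 KO CPM (0.47, interval 0.35 to 0.58), and at 24.5 and 46.1 in mid-stage round spermatids (0.91, interval 0.75 to 1.08). Both mid-stage clusters showed it, with 0.74 in the cluster led by 1700029E06Rik and 1.28 in the cluster led by Cd46. The ratio was 0.36 in spermatogonia, 0.30 in late spermatocytes and -0.02 in early spermatocytes. Sf3b4 was at or below WT in 6 of 7 classes, from -0.73 in early spermatocytes (68.7 against 41.4 CPM, interval -1.58 to 0.17) to 0.07 in spermatogonia. Sf3b2 was 3.98 and 7.59 CPM in late-stage round spermatids, a ratio of 0.93 (0.12 to 1.78) that rests on 21 and 36 UMIs. Sf3b5 was 130 and 75.9 in early spermatocytes, a ratio of -0.77 (-1.39 to -0.13) on 34 and 66 UMIs. The cells of that class changed with the clustering. Sf3a1, Sf3a2 and Sf3a3 were within 1.5-fold in every germ cell class in which they could be compared, with ratios from -0.42 to 0.42. Sf3a1 in early spermatocytes, at 15.3 and 50.6 CPM on 4 and 44 UMIs (1.73, interval 0.27 to 3.67), stayed under the minimum of 50 UMIs.

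Of the hnRNP genes, Hnrnpa2b1 had 276 WT and 430 KO CPM in late spermatocytes, a log2 ratio of 0.64 (0.58 to 0.70). It was 501 and 720 CPM in the cluster led by Gm14244 and Piwil1 (0.52) and 135 and 162 in the cluster led by Nutm2 (0.26). The first cluster held 291 of the 663 KO cells and 247 of the 706 WT cells of the class. Hnrnpa0 had 14.8 and 25.0 CPM in spermatogonia, a ratio of 0.75 (0.15 to 1.41), and Hnrnph2 18.4 and 27.7 in early-stage round spermatids, a ratio of 0.59 (0.33 to 0.84). In early spermatocytes Hnrnpr had 114 and 177 CPM (0.63, interval 0.06 to 1.25) and Hnrnpll 80.1 and 46.0 (-0.80, interval -1.60 to 0.04). Snrpd1 and Hnrnpc had no lower value in KO in any of the 7 classes, with ratios from 0.02 to 0.35 and from 0.00 to 0.48. The interval of Hnrnpc held 0 in 3 classes, among them late-stage round spermatids with 7.58 WT and 7.59 KO CPM, and that of Snrpd1 in 4. A KO value above WT in all 7 classes was found for 11.5% of the 2061 genes with enough UMIs in each of them.

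In sperm most called members were low. Hnrnpl had 0.945 WT and 2.67 KO CPM (24 and 36 UMIs), a ratio of 1.50 (0.72 to 2.31), and Hnrnpm 1.10 and 2.75 (28 and 37 UMIs), a ratio of 1.32 (0.57 to 2.08). Hnrnpu, also among the 12 members higher in KO sperm, had 14.7 and 24.7 CPM (0.74, interval 0.53 to 0.96). Their WT sperm levels were 0.403% (Srsf7) to 4.94% (Hnrnpu) of their spermatogonia levels, beside 0.722% for the spermatogonia marker list. In the WT library Srsf7, Snrpe (0.423%), Snrpb2 (0.515%), Hnrnpm (0.571%) and Snrpd3 (0.607%) were below that list. Of the 12, 1 (Snrpe) was at or below it in both libraries. Spermatogonia held 2.1% of all WT UMIs and 10.2% of all KO UMIs, and Leydig cells 1.24% and 12.4%. Hnrnph3 was the member lower in KO sperm, with 8.50 and 5.57 CPM and a ratio of -0.61 (-1.01 to -0.22).

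In Leydig cells the summed members had a log2 ratio of 0.19 (0.15 to 0.24), beside a median of -0.04 for all genes. The size rule picked 15.2% of all genes as higher and 18.9% as lower, and 4 and 1 of 49 members. Sf3b3 was 6.03 and 15.5 CPM, but on 6 WT UMIs (1.36, interval 0.21 to 2.83), Hnrnpa1 18.1 and 30.6 (0.76, interval 0.08 to 1.53), and Srsf9 17.1 and 8.93 (-0.93, interval -1.69 to -0.09). The immediate early and heat shock genes of the dissociation and stress list summed to 4386 WT and 9788 KO CPM in Leydig cells, a log2 ratio of 1.16, and their part in the members' values was not tested. Mid-stage round spermatid markers stood in Leydig cells at 9.83% (WT) and 2.71% (KO) of their level in their own class. Sperm markers stood at 5.84% and 4.75%, and spermatogonia markers at 3.86% and 5.47%. The part of germ cell RNA in the members' values was not tested.

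In Sertoli cells 41 of 48 members were higher and 2 lower in KO, but the rule also picked 59.6% of all genes as higher and 17.4% as lower, and the median of all genes was 0.85. The summed ratio of 0.92 (0.85 to 1.00) was 0.08 relative to that median. The summed ratio without Snrpd2 was 1.14, and the median over the members was 1.16. Sperm markers stood at 58.4% of their sperm level in the 50 WT Sertoli cells and at 14.6% in the 475 KO cells, and all 33 of them had UMIs in both. Snrpd2, the member with high levels in sperm, ran the other way, with 577 WT and 305 KO CPM (-0.92, interval -1.11 to -0.73), as did Sf3a2 with 18.7 and 12.3 (-0.61, interval -1.63 to 0.59). The largest ratios were those of Hnrnpul2, 4.15 and 28.1 CPM on 2 WT UMIs (2.76, interval 0.88 to 5.82), and Sf3a3, 20.8 and 88.4 (2.09, interval 1.20 to 3.16). The dissociation and stress list summed to 1640 WT and 4993 KO CPM in Sertoli cells, a log2 ratio of 1.61, and mitochondrially encoded genes took 7.65% and 12.2% of the UMIs. The part of sperm RNA, of stress genes and of the mitochondrial share in these values was not tested.

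In macrophages, with 26 WT and 83 KO cells, 20 of 29 members were higher and none lower, against 22.1% and 19.7% of all genes, and the median over the members was 0.79 against -0.03 over all genes. Snrpe had 59.2 and 187 CPM (1.66, interval 0.97 to 2.43) and Hnrnpdl 40.5 and 139 (1.78, interval 0.94 to 2.73). Sperm markers stood at 29.6% and 22.4% and spermatogonia markers at 2.18% and 12.0% of their own-class levels in these cells. The list of peritubular and fibroblast markers summed to 1470 WT and 3041 KO CPM, with 12 and 15 of its 15 genes above 0, and it also passed the naming count in this cluster. The part of germ cell RNA and of these other cells in the members' values was not tested.

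The other genes of splicing were taken from lists. Of 55 other spliceosome subunits, none was 1.5-fold apart among the 54 compared in spermatogonia, where their median log2 ratio was 0.24 and that of the members 0.19. In late spermatocytes 8 of 54 were higher and none lower (median 0.16), beside 10.2% and 6.64% of all genes, and in mid-stage round spermatids 7 of 49 were higher and none lower (median 0.14), beside 15.1% and 6.68%. Of 48 other splicing regulators, 8 of 46 were higher and 2 lower in spermatogonia, beside 10.8% and 14.5% of all genes, and 9 of 44 higher and 3 lower in mid-stage round spermatids. Of 12 genes of the SMN complex and its partners, which load the Sm ring onto snRNA, 1 of 11 was higher and none lower in mid-stage round spermatids.

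Of these lists 2 germ cell regulators, named after their values were seen, stood lower in KO from late spermatocytes to mid-stage round spermatids. Rbmxl2, a testis relative of the RNA-binding protein RBMX that protects meiotic splicing, had 23 WT and 9.84 KO CPM in late spermatocytes (-1.23), 26.9 and 9.84 in early-stage (-1.45) and 42.7 and 14.9 in mid-stage round spermatids (-1.51). Ptbp2, which holds back adult splicing patterns in spermatocytes, had 111 and 97.6 in late spermatocytes (-0.19), 70.0 and 48.9 in early-stage (-0.52) and 35.6 and 16.3 in mid-stage round spermatids (-1.12). In the same classes the lowest ratio of a member with enough UMIs was -0.38 (Srsf2), -0.62 (Srsf6) and -0.64 (Srsf2), so that Rbmxl2 lay below every member in each of them and Ptbp2 in mid-stage round spermatids only.

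As a sum, the kinases of SR proteins did not share the stage pattern of their substrates. Srpk2 supplied most of that sum in sperm, and the list was not summed without it. The 10 genes of this list summed to 739 WT CPM in spermatogonia, 699 in early-stage round spermatids and 1210 in sperm, with 723, 695 and 1229 in the KO library. Srpk2 was 164 WT CPM in spermatogonia, 151 in early-stage, 554 in mid-stage and 767 in late-stage round spermatids and 957 in sperm, while Srpk1 was highest in late spermatocytes at 510. In the KO library Srpk2 had 181, 128, 509, 722 and 901 in the same classes. Srpk2 was thus, like Snrpd2, higher in sperm than in spermatogonia in both libraries; both Srpk genes are named here after their values were seen.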

How the data were processed

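Dissociated testis cells of 1 WT and 1 KO library (Singleron GEXSCOPE) were analysed. The deposited values are raw UMI counts per gene and cell. Per the study's methods and the submitters' processing notes, the authors took barcode and UMI from read 1, trimmed read 2 with fastp 1, aligned it with STAR 2.5.3a, counted genes with featureCounts 1.6.2 and grouped reads by barcode, UMI and gene. The methods name a human genome build, although the gene symbols are those of mouse; the strand setting of counting and the selection of barcodes are not given in the sources used here. All 5756 WT and 7012 KO barcodes had over 500 genes and were kept, and the study states fewer cells in each library.

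From these counts, cells were clustered again with Seurat 5.3.0 in R 4.3.3 after the study's settings (2000 variable features, 20 anchor dimensions, 30 principal components, resolution 0.3), and 4 members were among the variable features. A list could name a cluster when at least 3 of its markers were detected in 10% of the cells at 2-fold or more over the other cells. Among such lists the one with the highest mean log2 fold was taken. It was replaced when another such list had at least 2 more markers among the cluster's top 10 genes. The late-stage round spermatid class was named by this replacement. Some spermatid and sperm markers came from the study's own cluster genes. Doublets were scored with Scrublet in scanpy 1.11.5 and kept. UMIs were summed per library and class and divided by the class total. Levels carry exact Poisson 95% intervals, and log2 ratios the exact conditional interval of the 2 sums (Python 3.11.15, SciPy 1.17.1). A ratio was read for members with at least 50 UMIs in both libraries together and called at 1.5-fold. The code was tested on simulated data. Gene positions and overlaps came from GENCODE vM21 (GRCm38), promoters from RefSeq, and similar transcript ends (last 300 bases, 95% identity over 100 bases) from BLAST+ 2.17.0.

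Named with values were the 3 members of each family with most UMIs, every Sf3a and Sf3b member, members highest in a spermatid or sperm class, and in each class the 2 largest and 2 smallest ratios among those called; other genes were named after their values were seen, and macrophages were described in addition. The members and gene lists were chosen with earlier results of these data known. Alternatives changed the clustering, cell filters, doublets, depth, totals, minimum UMIs and fold.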

Additional observations from a re-analysis of the deposited data

Results flagged for a closer look

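Both Srsf6 and Hnrnph3 had ratios past 1.5-fold in opposite directions in different classes, with no test of the difference, since each class has 1 library per genotype. Srsf6 had a log2 ratio of KO to WT of 0.89 in late spermatocytes and 0.72 in sperm, against -0.62 in early-stage round spermatids. Hnrnph3 had -0.61 in sperm and 0.61 in Leydig cells, where the WT value rests on 15 UMIs.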

How the results depend on the processing

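No paired analysis was possible because each genotype has 1 library and no replicate could be paired or left out. Counting error is the only error these values carry, and the cause of the shifts below was not tested. The log2 ratio of the summed members in spermatogonia (0.17) was 0.09 with clustering at resolution 0.8, 0.11 without integration, 0.08 with members left out of the variable features, 0.13 without doublets, 0.11 with cells thinned to 5000 UMIs, 0.21 with totals without mitochondrial and ribosomal protein genes, 0.12 as a mean share per cell, 0.15 with clusters weighted alike and 0.14 relative to the median of all genes. In early spermatocytes (-0.07) the first 3 of these gave 0.09, 0.06 and 0.08, so its direction depends on the clustering. In late spermatocytes (0.23) it was 0.26 with members left out of the features, 0.21 thinned, 0.25 with the reduced totals, 0.16 weighted alike, 0.19 relative to the median and 0.25 without Snrpd2. In early-stage round spermatids (0.11) it was 0.08 at resolution 0.8, 0.14 with cells of over 1000 genes and 0.13 without Snrpd2. In mid-stage round spermatids (0.05) it was 0.00 at resolution 0.8, 0.08 without integration, and 0.02 with cells of over 1000 genes, without doublets or relative to the median. In late-stage round spermatids (0.10) it was 0.27 without integration. In sperm (0.31) it was 0.37 without integration, 0.34 as a mean share, 0.09 weighted alike, 0.13 relative to the median and 0.24 without Snrpd2. In Leydig cells (0.19) it was 0.15 without doublets, 0.08 thinned and 0.12 as a mean share. In Sertoli cells (0.92) it was 0.71 without integration, 1.02 with the reduced totals, 1.01 as a mean share, 0.08 relative to the median and 1.14 without Snrpd2. The 25 member and class pairs higher in KO became 45 without integration, 39 at 20 UMIs, 9 at 200 UMIs, 4 at a fold of 2 and 13 without the sperm class. The 11 lower pairs became 7 without integration, 7 with members left out of the features, 6 at 200 UMIs and 0 at a fold of 2. Thinned cells gave 20 higher and 10 lower pairs, of which 12 and 4 were shared with the main counts, and clustering at resolution 0.8 gave 27 and 9, of which 19 and 4 were shared. Spermatogonia stood above sperm by 4.75 (WT) and 4.89 (KO) for Srsf, 5.21 and 5.07 for Hnrnp, 2.46 and 2.29 for Snrp and 6.08 and 6.02 for Sf3b with the reduced totals. As mean shares the values were 4.68 (Srsf, WT), 5.13 (Hnrnp, WT) and 2.42 and 2.14 (Snrp), and with thinned cells 4.72 and 4.79 (Srsf), 5.16 (Hnrnp, WT), 2.39 and 2.15 (Snrp) and 5.56 (Sf3b, KO). Without Snrpd2 the Snrp values were 5.75 and 5.67. Of 473 alternative values for 43 named member and class pairs, 458 lay within the counting interval, 14 outside it and 1 turned; 74 were under 1.5-fold, and 27 of the 43 pairs were so in at least 1 alternative. The 1 that turned was Srsf5: in late-stage round spermatids it went from -0.88 to 0.67 without integration. The alternatives without Snrpd2, without the sperm class and without the 45 shared barcodes were chosen after seeing the data; leaving out the shared barcodes gave 25 and 11 pairs.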
